A study of Homo sapiens with 15 samples.

Results

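MYC and the genes of the MAX network were followed across 5 groups of KPL4 cells, an established human line of breast adenocarcinoma that carries extra copies of HER2 (ERBB2). The 9 genes were MYC, MAX, MXD1, MXD3, MXD4, MXI1, MNT, MLX and MLXIP. They were taken by symbol from the 60664 gene identifiers of the deposited count table, with earlier results of these data known. All 9 were found and passed the filter on low counts. LY500307 cells were ERβ knockout KPL4 cells carrying exogenous estrogen receptor β (ERβ, encoded by ESR2), first held for 72 h without phenol red and in charcoal-stripped serum, then exposed for 24 h to 200 nM of the ERβ agonist LY500307. Vehicle cells were the same cells in the same medium, given DMSO. Add-back cells were knockout cells with exogenous ERβ and no ligand treatment, knockout cells lacked ERβ, and control cells had their endogenous ERβ. Each group had 3 total RNA libraries depleted of ribosomal RNA. The labels do not say whether a group was 1 clone or whether its libraries were separate cultures, so p-values measure only the spread between these libraries.

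MYC is a transcription factor that binds DNA as a dimer with MAX, at the CACGTG sequence called the E-box, and drives genes of ribosome biogenesis, nucleotide synthesis and mitochondrial metabolism. MXD1, MXD3, MXD4, MXI1 and MNT compete with MYC for MAX, and the dimers they form recruit the SIN3-HDAC corepressor to the same sites. MLX, a relative of MAX, pairs with MLXIP (MondoA), which responds to glucose-derived metabolites and drives TXNIP and ARRDC4. In breast tumours MYC is often amplified, and in hormone-responsive breast cells it is a known target of estrogen.

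Library totals ran from 12614074 to 19390378 expected counts. Levels are CPM, counts scaled to a common library total with TMM factors, which compare 1 gene between groups, or CPM per kilobase of transcript, which compare genes. ESR2 mRNA lay between 42.4 and 45.0 CPM in LY500307, 41.7 and 48.0 in vehicle, 30.6 and 34.1 in add-back, 3.04 and 5.77 in knockout and 4.79 and 6.44 in control libraries. The mRNA therefore marked the libraries with exogenous ERβ, and the knockout and control ranges overlapped, so it does not check the knockout label. The 8 epithelial and HER2 markers summed to between 6780 and 10800 CPM in every library. The 9 immune, endothelial and stromal markers summed to between 19.6 and 21 CPM in LY500307, 18.4 and 18.7 in vehicle, 7.86 and 8.78 in add-back, 8.14 and 8.98 in knockout and 5.37 and 8.21 in control libraries, and 6 of the 9 were under 1 CPM everywhere. In bulk RNA, fewer cells expressing a gene and less RNA per cell cannot be told apart.

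Per length, MYC mRNA was the most abundant of the 9, with a median over the 15 libraries of 43.2 CPM per kilobase. MLXIP followed at 17.7, MAX at 17.5 and MLX at 15 CPM per kilobase. The 5 repressors lay well below these, with medians of 6.83 for MXI1, 5.59 for MXD3, 4.61 for MXD4, 3.68 for MNT and 3.52 for MXD1 on the same scale. Over all libraries MLXIP ran from 15.7 to 19.2 and MAX from 15.5 to 19.8 CPM per kilobase, so their order was within the spread. The value of MXI1 is the least certain, since transcripts listed in GENCODE 29 held 32.8% of its counts.

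The ratio of MYC to its partner MAX, on the per-kilobase scale, averaged 1.77 ± 0.10 in LY500307, 1.5 ± 0.128 in vehicle, 2.70 ± 0.158 in add-back, 2.73 ± 0.125 in knockout and 3.74 ± 0.0997 in control libraries (SD, n = 3 each). MYC over the sum of the 5 repressors averaged 1.26 ± 0.0778 in LY500307, 1.13 ± 0.109 in vehicle, 1.62 ± 0.0395 in add-back, 1.89 ± 0.163 in knockout and 2.95 ± 0.137 in control libraries. Both ratios were highest in control cells, and no library of another group reached the control range. The sum of the repressors over MAX varied less, with group means of 1.67 ± 0.136 in add-back and 1.27 ± 0.076 in control libraries at its ends. MLXIP over MLX stayed between 1.05 and 1.29 in all 15 libraries. These ratios describe mRNA, are not corrected for GC content and are given without a test. When GC content and length were fitted, the add-back against control differences of MXD3, MXD4 and MNT changed sign, as given below.

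**Figure D1:**
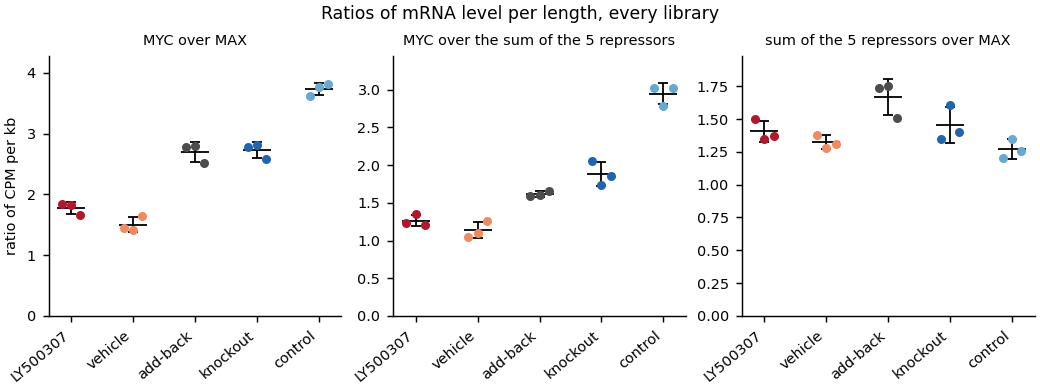
Ratios of mRNA levels per kilobase (y axis, no unit) for MYC over MAX, MYC over the sum of MXD1, MXD3, MXD4, MXI1 and MNT, and that sum over MAX. Points are the 3 libraries of each group, with mean and SD as bars; the MYC ratios are highest in control cells, where MYC over MAX is 3.62 to 3.82.

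The E-box lay in the promoter of 3 of the 8 members with a RefSeq promoter window (250 bases before to 50 after a gene's start, GRCh38.p14), namely MNT, MXD4 and MLX. The search was for CACGTG, which reads the same on both strands. Of all 27305 genes with a window 8.77% held it, and of all 35116 windows 7.26%. Among genes other than the members, the motif was in 13 of 28 nucleolar and ribosome biogenesis targets and 16 of 28 growth and metabolic targets. It was in 3 of 5 MondoA-MLX targets, 3 of 8 cofactors, 4 of 13 turnover genes and 1 of 13 SIN3-HDAC genes. Of the genes repressed by MYC 1 of 6 held it, and of the other network genes 0 of 4 with a window. A match is a run of letters, not a shown binding site. The 250 bases before the start are printed for the 3 members with a match and for ARRDC4, the MondoA-MLX target discussed below whose window held one, with CACGTG in capitals, each on the strand of its gene.
MNT (chr17:2401061-2401310, minus strand): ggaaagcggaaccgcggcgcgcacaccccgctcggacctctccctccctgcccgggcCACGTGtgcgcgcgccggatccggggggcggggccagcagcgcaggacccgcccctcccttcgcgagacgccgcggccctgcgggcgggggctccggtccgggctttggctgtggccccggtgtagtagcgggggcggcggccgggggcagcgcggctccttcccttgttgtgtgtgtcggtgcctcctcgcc
MXD4 (chr4:2262110-2262359, minus strand): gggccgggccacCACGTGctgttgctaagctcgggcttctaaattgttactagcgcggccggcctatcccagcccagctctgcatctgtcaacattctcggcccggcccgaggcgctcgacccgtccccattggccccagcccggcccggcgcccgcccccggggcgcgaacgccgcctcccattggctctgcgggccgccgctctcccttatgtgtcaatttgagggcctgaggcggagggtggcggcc
MLX (chr17:42566850-42567099, plus strand): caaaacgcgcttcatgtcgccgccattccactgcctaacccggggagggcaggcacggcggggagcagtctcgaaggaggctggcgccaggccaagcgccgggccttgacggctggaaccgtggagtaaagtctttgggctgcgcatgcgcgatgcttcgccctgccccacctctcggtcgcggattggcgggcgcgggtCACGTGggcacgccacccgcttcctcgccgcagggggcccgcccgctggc
ARRDC4 (chr15:97960453-97960702, plus strand): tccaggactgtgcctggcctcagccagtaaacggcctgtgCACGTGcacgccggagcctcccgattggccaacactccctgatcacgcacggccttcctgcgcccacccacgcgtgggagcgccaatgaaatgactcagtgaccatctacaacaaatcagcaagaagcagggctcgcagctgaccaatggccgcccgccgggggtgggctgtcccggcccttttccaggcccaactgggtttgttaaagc
The motif began 193 bases before the start in MNT, 238 in MXD4, 50 in MLX and 210 in ARRDC4. The windows of MAX, MXD1, MXD3, MXI1, MLXIP and TXNIP did not hold these letters.

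MYC mRNA differed between groups more than any other member. MYC (ENSG00000136997, chr8:127735434-127741434, plus strand, GRCh38) had 73.3, 74.4 and 70.8 CPM in LY500307, 55.6, 56.6 and 61.5 in vehicle, 98.5, 98.9 and 98.4 in add-back, 99.96, 102.6 and 106.5 in knockout and 163.6, 151.4 and 155.6 in control libraries. No library of one group fell inside the range of another, and the order of the group means ran from control through knockout, add-back and LY500307 down to vehicle. Knockout and add-back, neighbours in that order, did not pass the test of their difference. The neighbours add-back and LY500307 differed in medium as well as ligand and were not tested.

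**Figure D2:**
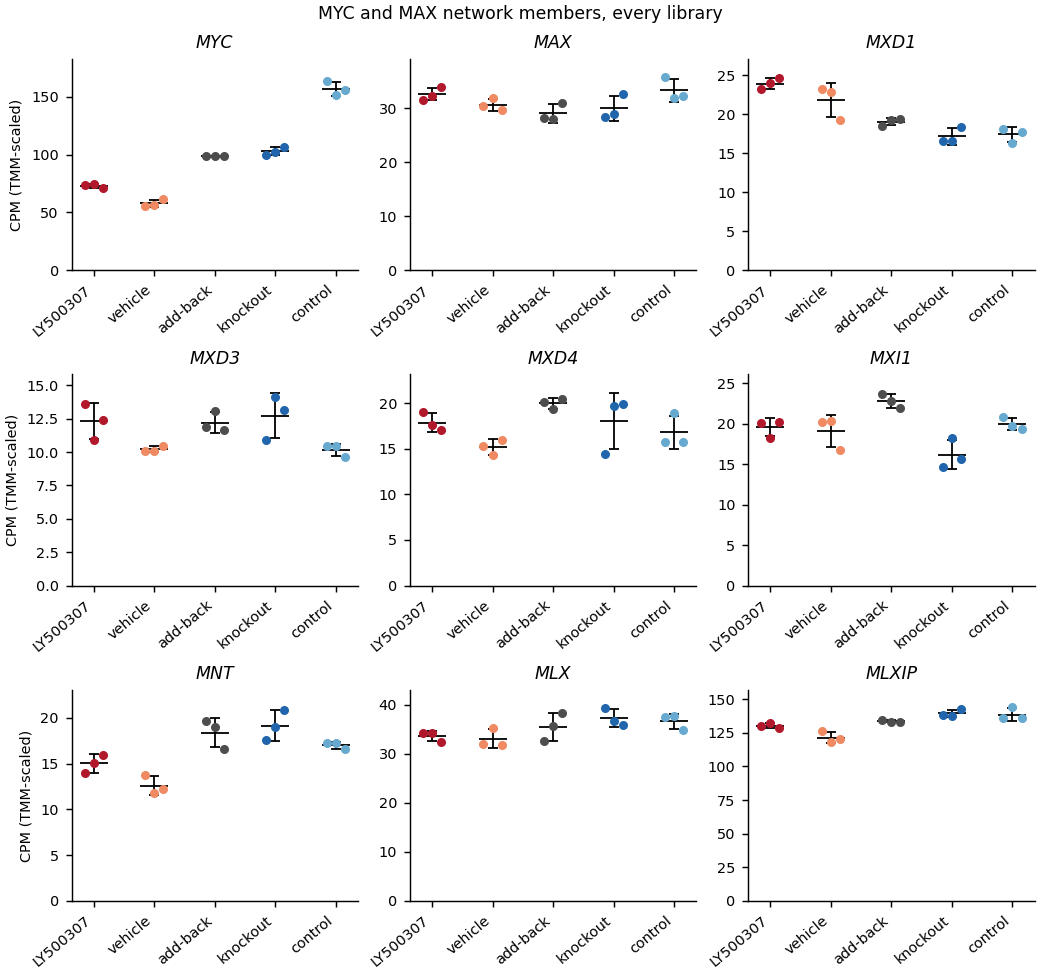
Level of each of the 9 genes (y axis, CPM with TMM scaling, from 0) in the 5 groups. Points are single libraries, horizontal bars the mean and whiskers the SD of 3 libraries; MYC shows the widest separation of groups, with means of 72.8 CPM in LY500307, 57.9 in vehicle, 98.6 in add-back, 103.0 in knockout and 156.9 in control cells.

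Knockout cells, compared with control cells, had less MYC. The labels do not say whether a group was 1 clone, so loss of ERβ and a difference between clones cannot be told apart. MYC averaged 103.0 ± 3.28 CPM in knockout and 156.9 ± 6.23 CPM in control libraries (SD, n = 3 each), which is -0.61 ± 0.04 on the log2 scale (SE, edgeR adjusted p = 7.87e-10). Of the 9 members 3 passed, where 46% of the 19516 genes tested passed, 23.4% higher and 22.6% lower. MYC and MXI1 fell and MXD3 rose. By the size of the change MYC stood at a place that 21.4% of all genes exceeded.

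Among the repressors, MXI1 had 14.7, 18.2 and 15.7 CPM in knockout and 20.8, 19.7 and 19.3 CPM in control libraries, and each knockout library was below each control library. Its log2 fold change was -0.30 ± 0.09 (edgeR adjusted p = 0.00722). MXD3, which mouse progenitors express in S phase, had 10.9, 14.2 and 13.2 CPM in knockout and 10.5, 10.4 and 9.67 CPM in control libraries, without overlap. MXD3 rose by 0.32 ± 0.10 on the log2 scale (edgeR adjusted p = 0.0146), but by 0.02 (adjusted p = 0.868) once offsets for GC content and length were fitted, and its call also ended with DESeq2 (0.0501) and without control replicate 3 (0.0623), knockout replicate 2 (0.0802) or knockout replicate 3 (0.0529). MXD3 overlaps RAB24 on the same strand, MXD1 overlaps SNRNP27 on the same strand, and MAX and MLX overlap FNTB and PSMC3IP on the opposite one. The use of strand in counting is not given in the sources used here, so these counts are uncertain.

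The remaining members gave log2 differences between -0.15 and 0.18 that did not pass. MAX, the shared partner, was at -0.15 ± 0.06 (edgeR adjusted p = 0.0748), and without knockout replicate 3 it passed at -0.21 (0.0163). MNT, the repressor most widely expressed in tissues, was at 0.18 ± 0.08 (0.102) and MXD4 at 0.10 ± 0.10 (0.442), and both passed as higher without knockout replicate 1, at 0.24 (0.0366) for MNT and 0.24 (0.0305) for MXD4. With the offsets these 2 repressors turned and passed as lower, MNT at -0.21 (0.0494) and MXD4 at -0.38 (5.23e-04), as did MLXIP, at 0.01 ± 0.04 without and -0.26 (5.00e-06) with them. MXD4, MNT, MXD3 and MLXIP have the highest GC content of the 9, between 57.8% and 61.8%, against 54.0% for MYC. MLX at 0.03 ± 0.06 and MXD1 at -0.02 ± 0.08 passed under neither fit, and the signs of both changed when single libraries were left out.

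Ribosome biogenesis genes known as MYC targets fell in knockout cells more often than they rose. This list and those below were chosen with earlier results of these data known. Their counts are therefore descriptions and not an independent comparison with all genes. Of 34 tested, 23 were lower and 3 higher (30 and 1 with the offsets), with a median log2 fold change of -0.27 against -0.0049 for all genes. Without the offsets 22.6% of all genes tested were lower and 23.4% higher. Higher genes made up 42.1% of all calls with the offsets and 50.8% without. NCL, the nucleolar protein nucleolin, averaged 659 ± 51 CPM in knockout and 1195 ± 17 CPM in control libraries, at -0.86 ± 0.04 (edgeR adjusted p = 3.72e-12). NOP58, a core protein of box C/D small nucleolar ribonucleoproteins, was at -0.68, UTP20, of the small-subunit processome, at -0.53, and WDR12, which matures the large subunit with BOP1 and PES1, at -0.92. Growth and metabolic targets followed, with 20 of 32 lower and 6 higher (24 and 4 with the offsets) and a median of -0.17. HSPD1, the mitochondrial chaperonin HSP60, averaged 800 ± 24 CPM in knockout and 1488 ± 36 CPM in control libraries, at -0.90 ± 0.03 (edgeR adjusted p = 9.31e-15). LDHA, lactate dehydrogenase A, was at -0.61 and PTMA, prothymosin alpha, at -0.54.

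Genes known to be repressed by MYC did not move one way in knockout cells. Of 10 tested, 3 were higher, 3 lower and 4 not called, and with the offsets 3 were higher and 5 lower. The cyclin-dependent kinase inhibitor CDKN1C rose by 1.74 and the stress gene GADD45B by 0.89 on the log2 scale, whereas CDKN2B fell by 0.38 and NDRG1 fell by 0.38. Of 14 MYC cofactors 6 were higher and 2 lower, but 2 and 6 with the offsets. The ATPase RUVBL1 was at -0.41 and the scaffold TRRAP at 0.25, on the same side under both fits. Of 14 SIN3-HDAC genes 2 were higher and 7 lower (0 and 6 with the offsets), led by ING1 at -0.92. Of 17 genes of MYC protein turnover 3 were higher and 10 lower (1 and 10 with the offsets). SKP2, a subunit of a ubiquitin ligase for MYC, led them at -0.70. The counts without the offsets stand beside 46% of all genes tested that passed, 23.4% higher and 22.6% lower. With the offsets 42.1% of all calls were higher.

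**Figure D3:**
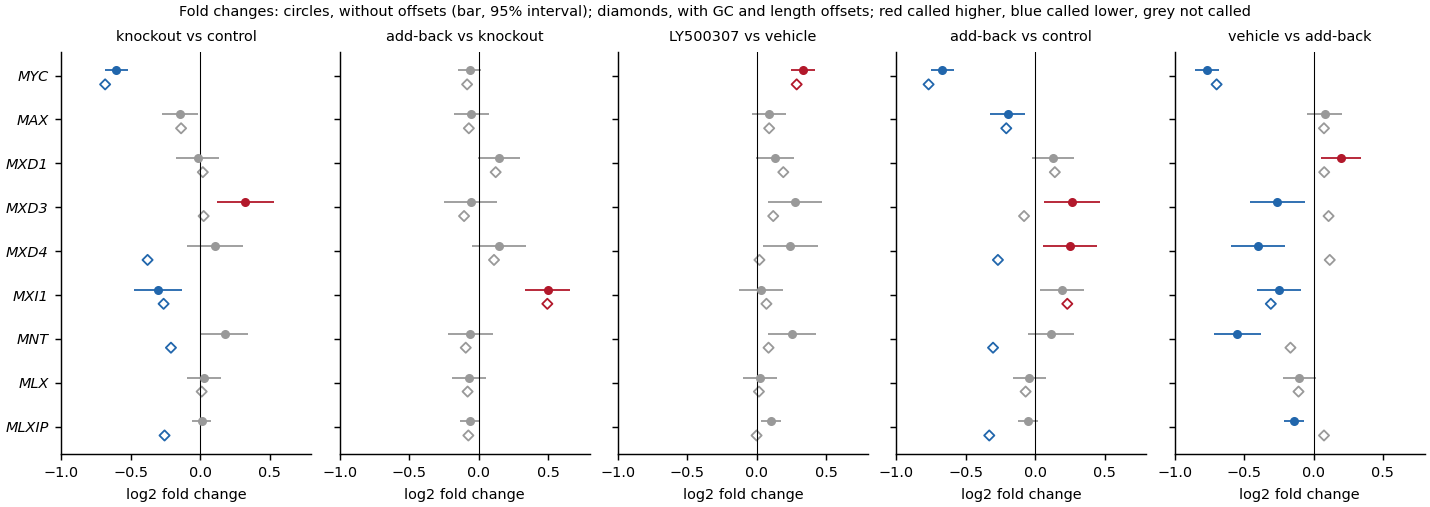
Log2 fold change (x axis) of the 9 genes in each comparison, first-named group over second. Circles are edgeR estimates with 95% intervals and diamonds the same fit with GC content and length offsets; red passed as higher, blue as lower, grey did not pass. MYC keeps its side under both fits in the 4 comparisons where it passed. MXD1, MXD3, MXD4, MNT and MLXIP each switch sides between fits in some comparisons and not in others.

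Add-back cells, compared with knockout cells, had more MXI1, while the difference in MYC did not pass the test. MYC averaged 98.6 ± 0.30 CPM in add-back and 103.0 ± 3.28 CPM in knockout libraries, at -0.06 ± 0.04 on the log2 scale (edgeR adjusted p = 0.341). The 95% interval of that difference ran from -0.15 to 0.02, which does not reach the size of the difference between knockout and control cells in either direction. MXI1, a MAX-bound repressor, had 23.7, 22.8 and 21.9 CPM in add-back and 14.7, 18.2 and 15.7 CPM in knockout libraries, so every add-back library was above every knockout library. It was 1.41-fold higher, at 0.50 ± 0.08 on the log2 scale (edgeR adjusted p = 2.70e-04), and it passed under every alternative run, between 0.45 and 0.60.

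MXI1 was the 1 member of 9 that passed in this comparison, where 19.6% of all genes tested passed, 10.4% higher and 9.19% lower. With upper-quartile scaling 42.0% of all calls were higher, against 53.1% with TMM. The other 8 members lay between -0.07 and 0.15. The closest to passing was MXD1, at 0.15 ± 0.08 (edgeR adjusted p = 0.196), with 18.5, 19.3 and 19.4 CPM in add-back and 16.5, 16.5 and 18.4 CPM in knockout libraries.

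Ribosome biogenesis targets were mostly not called between add-back and knockout cells. Of 34 such genes 3 were higher and 2 lower, with a median of -0.01, equal to that of all genes at 2 decimals. Over all genes tested 10.4% were higher and 9.19% lower. WDR12 was at 0.27 and NOP56, another box C/D protein, at -0.14. Of 32 growth and metabolic targets 8 were higher and 3 lower. ODC1, the rate-limiting enzyme of polyamine synthesis, averaged 276 ± 16 CPM in add-back and 186 ± 6.0 CPM in knockout libraries, at 0.57 ± 0.05 (edgeR adjusted p = 4.39e-08), and CAD, of pyrimidine synthesis, was at 0.26. Of 10 genes repressed by MYC 5 were higher and 2 lower (3 higher without add-back replicate 2), with NDRG1 at 0.69 and CDKN1C at 1.01. Among the regulators, 1 of 14 cofactors, 2 of 14 SIN3-HDAC genes and 4 of 17 turnover genes were higher and 1 turnover gene, the ubiquitin ligase HUWE1, was lower; TRRAP was at 0.13, ING1 at 0.38 and SKP2 at 0.25. The call of HUWE1, at -0.09, ended in 9 of 15 alternatives, among them the offsets (adjusted p = 0.0994) and those without knockout replicate 1 (0.205), knockout replicate 2 (0.0749) or any 1 of the 3 add-back libraries (0.0665 to 0.165).

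The ERβ agonist, compared with its vehicle in the same medium, came with more MYC. MYC had 73.3, 74.4 and 70.8 CPM in LY500307 and 55.6, 56.6 and 61.5 CPM in vehicle libraries, and every LY500307 library was above every vehicle library. The mean was 1.26-fold higher, at 0.33 ± 0.05 on the log2 scale (edgeR adjusted p = 3.50e-04), and it passed under every alternative run, between 0.29 and 0.39. LY500307 cells had 72.8 CPM of MYC beside 98.6 CPM in untreated add-back cells, a difference that was not tested.

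MYC was the 1 member of 9 that passed, where 7.12% of all genes tested passed, 4.77% higher and 2.35% lower. The share of higher genes among all calls was 67%, against 83.1% with no filter on low counts and 50.9% with the offsets, which left 279 calls of 1389. Calls over all genes numbered 586 without LY500307 replicate 1, 487 without LY500307 replicate 2, 403 without vehicle replicate 1 and 299 without vehicle replicate 2. MXD3, MNT and MXD4 were the next largest, at 0.27 ± 0.10 (edgeR adjusted p = 0.109), 0.26 ± 0.09 (0.0891) and 0.24 ± 0.10 (0.171), and with the offsets they came to 0.12, 0.08 and 0.02. With no filter on low counts MNT (0.29, adjusted p = 0.0398) and MXD4 (0.27, 0.0369) passed. MLXIP was at 0.10 ± 0.04 (0.102) and passed at 0.12 (0.042) with a filter of 1 CPM in 3 libraries, but with the offsets it turned to -0.0023. MAX at 0.09 ± 0.06, MXD1 at 0.13 ± 0.07, MXI1 at 0.03 ± 0.08 and MLX at 0.02 ± 0.06 did not pass under any alternative, and MXI1 turned to -0.03 without vehicle replicate 3.

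Ribosome biogenesis targets were called higher with LY500307 in 10 of 34 cases, with a median of 0.11 against -0.02 for all genes. Over all genes tested 4.77% were called higher. MYBBP1A, a nucleolar MYB-binding protein, averaged 142 ± 8.16 CPM in LY500307 and 108 ± 9.06 CPM in vehicle libraries, at 0.39 ± 0.06 (edgeR adjusted p = 0.00201). PES1 was at 0.22, BOP1 at 0.48 and TBRG4 at 0.31. The count depended on the setting: it was 1 with the offsets, where MYBBP1A was at 0.21 (0.0159), and 6 without vehicle replicate 1, vehicle replicate 2, LY500307 replicate 1 or LY500307 replicate 2. Of 32 growth and metabolic targets 6 were higher, and 1 with the offsets. SLC7A5, the large neutral amino acid transporter, averaged 485 ± 13 CPM in LY500307 and 321 ± 26 CPM in vehicle libraries, at 0.59 ± 0.05 (edgeR adjusted p = 1.55e-06) and at 0.43 (8.19e-08) with the offsets. No gene of either list passed as lower with edgeR, DESeq2 or limma-voom, and 0 of either had an unadjusted p under 0.05 in that direction.

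Genes repressed by MYC gave 0 calls of 10 with edgeR, DESeq2 and limma-voom, and with edgeR 1 higher and 2 lower had an unadjusted p under 0.05. Over all genes tested 4.77% were called higher and 2.35% lower. Of the 14 cofactors 3 were higher (HCFC1 at 0.26, KAT2A at 0.25 and RUVBL2 at 0.24), of 14 SIN3-HDAC genes 2 (SIN3B at 0.32 and BRMS1 at 0.22) and of 17 turnover genes 4 (PLK1 at 0.22, USP36 at 0.20, STUB1 at 0.29 and AXIN1 at 0.32). With the offsets the counts of cofactors and turnover genes called higher were 0. Without vehicle replicate 2 they were 1 each. The call of BRMS1 ended with the offsets (0.05, adjusted p = 0.853), with DESeq2 (0.133) and without any 1 of the 6 libraries.

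**Figure D4:**
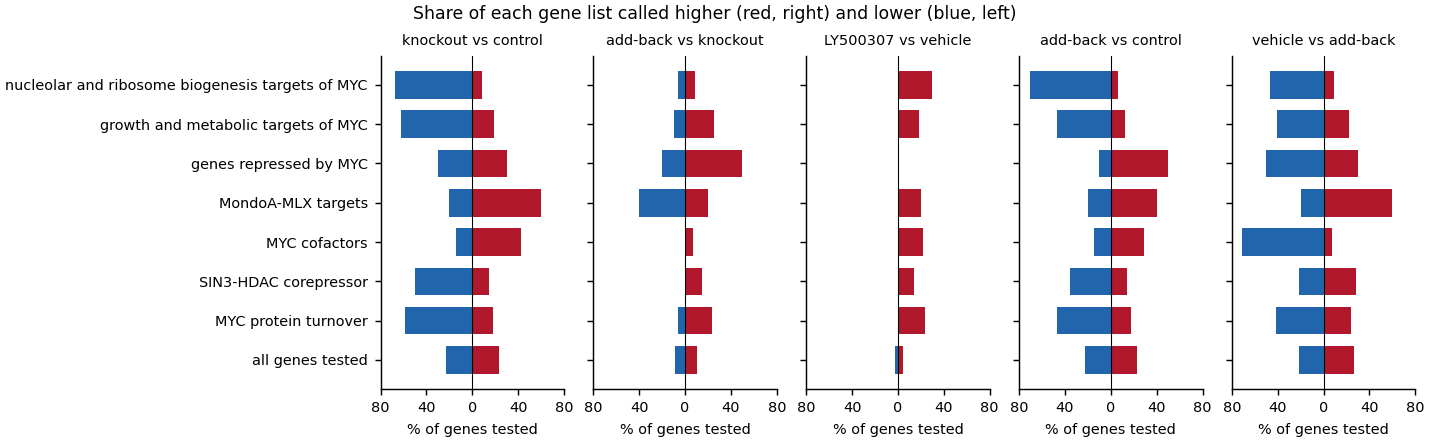
Percent of the tested genes of each list called higher (red, to the right) or lower (blue, to the left) in each comparison by edgeR, with all genes tested in the lowest row. In knockout against control cells the ribosome biogenesis list has 23 of 34 genes lower, and in LY500307 against vehicle cells 10 of 34 higher. The lists were chosen with earlier results of these data known.

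Add-back cells, set against control cells, had less MYC. The comparison shares its libraries with the first and second. MYC averaged 98.6 ± 0.30 CPM in add-back libraries, against 156.9 ± 6.23 CPM in control libraries, at -0.67 ± 0.04 (edgeR adjusted p = 2.87e-10), and MAX had 28.1, 28.1 and 31.0 CPM in add-back beside 35.8, 31.9 and 32.3 CPM in control libraries, at -0.20 ± 0.06 (0.0163). In all 4 of 9 members passed, where 45.8% of all genes tested passed, 23.2% higher and 22.7% lower. The call of MAX ended with DESeq2 (adjusted p = 0.0696), with no filter (0.0564) and without control replicate 1 (0.126), add-back replicate 1 (0.0919) or add-back replicate 2 (0.103).

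The other calls of that comparison were MXD3 at 0.27 ± 0.10 (edgeR adjusted p = 0.0397) and MXD4 at 0.25 ± 0.10 (0.0482), and both turned with the offsets, to -0.08 (0.52) and -0.27 (0.00714). MXD3 also failed without control replicate 2, control replicate 3 or add-back replicate 2, and MXD4 without any 1 of 5 libraries, all but control replicate 2. Both calls ended with DESeq2 (adjusted p = 0.0965 for MXD3 and 0.066 for MXD4). They also ended with edgeR under upper-quartile factors (0.0523 and 0.066) and the replicate block (0.056 and 0.0591). MXI1, which add-back cells held at 22.8 ± 0.885 CPM against 19.96 ± 0.779 CPM in control cells, was at 0.19 ± 0.08 (0.0614) and passed as higher in 6 alternatives, among them the offsets (0.23, 0.0193), RLE factors (0.0465) and those without control replicate 1 (0.0449) or add-back replicate 3 (0.0446). MNT was at 0.11 ± 0.08 and turned to -0.30 (0.00558), while MLXIP was at -0.05 ± 0.04 and passed at -0.33 (1.95e-07) with the offsets. MXD1 at 0.13 ± 0.08 and MLX at -0.04 ± 0.06 did not pass.

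Of 34 ribosome biogenesis targets 24 were lower and 2 higher in add-back than in control cells, and of 32 growth and metabolic targets 15 were lower and 4 higher. With the offsets 29 and 22 were lower and 0 and 1 higher, and the share of higher genes among all calls was 38.2% against 50.5% without them. NCL was at -0.84, NOP58 at -0.79 and HSPD1 at -0.82. Of 10 genes repressed by MYC 5 were higher and 1 lower (4 and 3 with the offsets). CDKN1C was at 2.76 and CDKN1B, the inhibitor p27, at 0.30. Cofactors had 4 higher and 2 lower of 14, but 1 and 7 with the offsets. SIN3-HDAC genes had 2 and 5 of 14 (1 and 5 with the offsets) and turnover genes 3 and 8 of 17 (1 and 10). Of all genes tested 45.8% passed, 23.2% higher and 22.7% lower. TRRAP was at 0.38, HCFC1 at 0.31 (-0.18 with the offsets), ING1 at -0.54, SIN3B at 0.24 (-0.06 with the offsets) and SKP2 at -0.45.

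Vehicle cells, set against add-back cells, had the lowest MYC of all. The groups differ in phenol red, serum, DMSO and time in depleted medium, which cannot be told apart. MYC averaged 57.9 ± 3.17 CPM in vehicle and 98.6 ± 0.30 CPM in add-back libraries, at -0.77 ± 0.04 (edgeR adjusted p = 4.70e-11), and at -0.70 (3.73e-11) with the offsets. MXI1 averaged 19.1 ± 2.02 CPM in vehicle and 22.8 ± 0.885 CPM in add-back libraries, at -0.25 ± 0.08 (0.0151), and also passed with the offsets at -0.31 (0.00238). These 2 of the 9 members were called under both fits.

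Without the offsets 7 of 9 members passed, 1 higher and 6 lower, where 48.1% of all genes tested passed, 26.4% higher and 21.6% lower. MNT had 13.8, 11.7 and 12.3 CPM in vehicle and 19.6, 18.9 and 16.6 CPM in add-back libraries, without overlap, at -0.55 ± 0.09 (edgeR adjusted p = 2.79e-05), and with the offsets it was at -0.17 (0.129). MXD4 had 15.3, 14.3 and 16.01 CPM in vehicle and 20.2, 19.3 and 20.5 CPM in add-back libraries, at -0.40 ± 0.10 (0.00269), but at 0.12 (0.232) with the offsets. MLXIP at -0.14 ± 0.04 (0.00351) and MXD3 at -0.26 ± 0.10 (0.0383) likewise turned with the offsets, to 0.08 (0.0911) and 0.11 (0.361).

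MXD1, a repressor induced when cells differentiate, was the member that rose, with 23.3, 22.9 and 19.3 CPM in vehicle and 18.5, 19.3 and 19.4 CPM in add-back libraries, at 0.20 ± 0.07 (edgeR adjusted p = 0.0301). Its groups overlapped, and the call ended in 11 of 15 alternatives, among them those without vehicle replicate 1 (0.218), vehicle replicate 2 (0.193) or any 1 of the 3 add-back libraries (0.0837 to 0.156). MXD3 failed without add-back replicate 2, vehicle replicate 1 or vehicle replicate 2, and also with DESeq2 (0.0887) and with the replicate block in edgeR (0.0533). MAX at 0.08 ± 0.06 and MLX at -0.10 ± 0.06 did not pass, and MLX did without add-back replicate 1 (-0.19, 0.0203) or vehicle replicate 2 (-0.18, 0.0467).

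Ribosome biogenesis targets had 16 lower and 3 higher of 34 in vehicle against add-back cells (14 and 7 with the offsets), and growth and metabolic targets 13 lower and 7 higher of 32 (10 and 12 with the offsets). Higher genes made up 66.1% of all calls with the offsets and 55.0% without. BOP1 was at -1.15 (-0.32 with the offsets), whereas ODC1 was at 0.65 and HK2, the hexokinase of the first step of glycolysis, at 0.54. Of 10 genes repressed by MYC 3 were higher and 5 lower (5 and 2 with the offsets), with NDRG1 at 1.48, CDKN1B at 0.65 and GADD45B at -1.33. Of 14 cofactors 10 were lower and 1 higher (5 and 1 with the offsets), with RUVBL2 at -0.60 (-0.16 with the offsets). Of 14 SIN3-HDAC genes 3 were lower and 4 higher, but 6 and 3 with the offsets. Turnover genes had 7 lower and 4 higher of 17 (4 and 4 with the offsets). Without the offsets 48.1% of all genes tested passed, 26.4% higher and 21.6% lower.

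MLXIP and MLX mRNA spanned narrow ranges, and their known targets wider ones. MLXIP lay between 118 and 144 CPM and MLX between 31.9 and 39.5 CPM over all 15 libraries. TXNIP, the thioredoxin-interacting protein that limits glucose uptake, had 78.0 ± 1.8 CPM in LY500307, 86.0 ± 4.1 in vehicle, 40.8 ± 3.2 in add-back, 31.7 ± 0.39 in knockout and 25.4 ± 1.4 in control libraries. TXNIP rose by 0.32 in knockout against control, by 0.37 in add-back against knockout and by 1.07 in vehicle against add-back cells on the log2 scale, and these directions held in every alternative. With LY500307 it was at -0.14 ± 0.05 (edgeR adjusted p = 0.0983).

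ARRDC4, an arrestin-domain protein that likewise limits glucose uptake, had 7.97 ± 0.30 CPM in LY500307, 8.25 ± 0.21 in vehicle, 3.95 ± 0.34 in add-back, 5.23 ± 0.34 in knockout and 2.94 ± 0.57 in control libraries. It rose by 0.82 ± 0.14 in knockout against control cells (edgeR adjusted p = 6.97e-05) and by 1.06 ± 0.12 in vehicle against add-back cells (4.14e-07). In add-back against knockout cells it fell by 0.41 on the log2 scale (0.0307), the side opposite to TXNIP, a call that ended in 7 of 15 alternatives. PFKFB3, which makes the activator of phosphofructokinase, rose by 0.65 with LY500307 and fell by 1.11 in vehicle against add-back cells. RGS16, a regulator of G-protein signalling, was at 1.40 in knockout against control and at -1.55 in add-back against knockout cells. Of the 5 MondoA-MLX targets tested, 3 were higher and 1 lower in knockout against control (46% of all genes called), 1 and 2 in add-back against knockout (19.6%), 1 and 0 with LY500307 (7.12%), 2 and 1 in add-back against control (45.8%) and 3 and 1 in vehicle against add-back cells (48.1%).

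**Figure D5:**
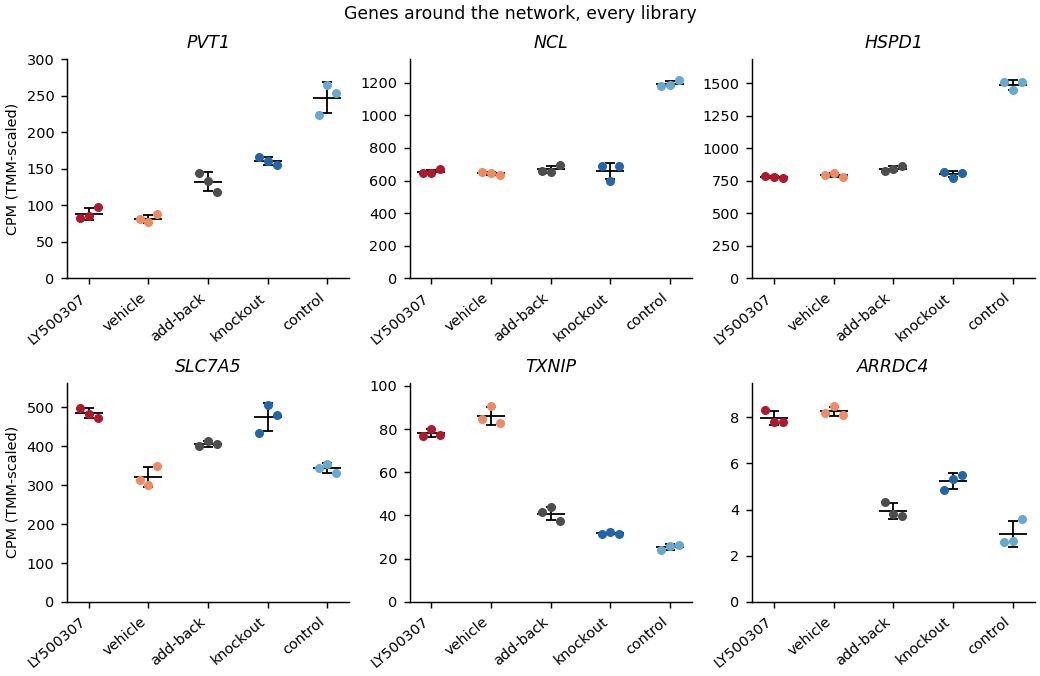
Levels (y axis, CPM with TMM scaling, from 0) of PVT1, the nucleolar gene NCL, the chaperonin gene HSPD1, the amino acid transporter gene SLC7A5 and the MondoA-MLX targets TXNIP and ARRDC4 in the 5 groups. Points are single libraries with mean and SD; NCL and HSPD1 are high in control cells alone among the 5 groups, while TXNIP is highest in vehicle and LY500307 cells.

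PVT1, a long noncoding RNA gene next to MYC on chromosome 8, had 88.3 ± 8.0 CPM in LY500307, 81.7 ± 5.5 in vehicle, 132 ± 13 in add-back, 161 ± 5.22 in knockout and 247 ± 21 in control libraries. It fell by 0.62 in knockout against control (edgeR adjusted p = 8.18e-07), by 0.28 in add-back against knockout (0.0108) and by 0.70 in vehicle against add-back cells (3.07e-07) on the log2 scale, and with LY500307 it was at 0.11 ± 0.08 (0.43). The call in add-back against knockout cells ended without knockout replicate 1 or add-back replicate 3. Other genes of the region differed in direction in knockout against control cells. ASAP1 was lower like PVT1 and MYC, at -0.25 ± 0.03 (edgeR adjusted p = 1.61e-06), and was also lower in add-back against knockout (-0.32) and in vehicle against add-back cells (-0.15), whereas LRATD2 was higher in knockout cells, at 0.40, and GSDMC at 0.93. Of the 6 neighbours tested, PVT1 included, 3 were higher and 2 lower in knockout against control (46% of all genes called), 0 and 4 in add-back against knockout (19.6%), 1 and 2 in add-back against control (45.8%) and 1 and 4 in vehicle against add-back cells (48.1%). With LY500307, where 7.12% of all genes passed, 0 neighbours passed with edgeR, DESeq2 or limma-voom, and 2 had an unadjusted p under 0.05, both lower.

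Of the network genes outside the 9, MYCN, a paralog of MYC used in embryonic and neural cells, was close to silent in control cells. Its summed reads over 3 libraries were 62 in LY500307, 43 in vehicle, 26 in add-back, 38 in knockout and 2 in control cells. Scaled for depth, knockout cells had 18.8 times the control level, with an exact 95% interval of 4.85 to 161 that covers counting error only. In no library was MYCN above 1.39 CPM. MLXIPL, the glucose-responsive factor ChREBP, averaged 2.14 ± 0.37 CPM in knockout and 0.65 ± 0.10 CPM in control libraries, at 1.71 ± 0.24 (edgeR adjusted p = 1.06e-05). MGA, a MAX partner of a noncanonical Polycomb complex, was at 0.38 ± 0.04 in vehicle against add-back cells (9.69e-08) and did not pass elsewhere. MYCL passed in add-back against knockout cells, at 0.45 ± 0.15 (0.0376), a call that ended in 6 of 15 alternatives.

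Transcript shares are RSEM estimates that divide reads among transcripts with common exons, and for MYC they cover the 78.9% of counts on transcripts listed in GENCODE 29. MYC-202 held the largest share, with group means between 55.3% and 59.8%. MYC-207, which begins just upstream of MYC-202 in the annotation, held 12.5% ± 1.7 in LY500307, 15.8% ± 2.3 in vehicle, 8.24% ± 0.76 in add-back, 9.61% ± 1.54 in knockout and 15.5% ± 1.7 in control libraries. Knockout and add-back libraries lay below all control libraries, LY500307 below all vehicle libraries and vehicle above all add-back libraries, each with an exact two-sided permutation p of 0.1, the smallest that 3 against 3 libraries can give. MYC-205 held 34.0% in knockout and 25.7% in control libraries, without overlap (exact permutation p of 0.1). Of the 60 comparisons of a transcript's share 11 had groups that did not overlap. The same count over all transcripts was not made. The comparisons have libraries in common and the shares of 1 gene depend on each other, so no result is drawn from this count. MNT-209, a retained-intron transcript of MNT, held 13.9% ± 3.3 in LY500307, 19.7% ± 1.8 in vehicle, 12.6% ± 2.5 in add-back, 15.7% ± 3.1 in knockout and 22.4% ± 5.6 in control libraries. MAX-204 and MAX-205, both protein-coding, held 41.1% to 47.9% and 30.1% to 35.3% by group mean, and their groups overlapped in every comparison. The groups of the MXD3 and MXD4 transcripts compared also overlapped in every comparison.

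The genes whose log2 level followed MYC most closely over the 15 libraries were CYC1 of mitochondrial complex III (Pearson r = 0.991), the nucleolar RRP1B (0.987), the MYC-responsive CDCA7 (0.987), the WNT regulator AMER1 (0.983) and FAM216A (0.979), out of 12116 protein-coding genes compared. CYC1 lies on chromosome 8 like MYC. Its group means were 117 CPM in LY500307, 111 in vehicle, 134 in add-back, 140 in knockout and 161 in control cells. Among the members r with MYC was 0.81 for MLXIP, 0.68 for MNT, 0.61 for MLX, 0.25 for MXD4, 0.22 for MAX, 0.04 for MXI1, -0.04 for MXD3 and -0.75 for MXD1. Libraries of one group share their treatment, so these values describe 5 groups more than 15 independent points.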

How the data were processed

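The submitters' processing notes name FastQC, Trim Galore, GSNAP, RSEM and the GRCh38 build, with no versions; the annotation release and strand setting are not given in the sources used here. The values the authors deposited are RSEM's expected counts, for genes and for transcripts, without normalisation; they were rounded to whole numbers for testing. Every column was mapped to a sample by its title. Genes were filtered with filterByExpr by group (19516 kept), scaled with TMM and tested with edgeR 4.0.16 in R 4.3.3 by the two-sided quasi-likelihood F test in 1 group-means model of all 15 libraries, with Benjamini-Hochberg adjustment over all genes of a comparison and a threshold of 0.05. The biological coefficient of variation was 4.99%. The code was tested on simulated data. Replicate libraries differed beyond sampling noise (chi-square per degree of freedom 2.15 to 5.44).

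Positions, length and GC content came from GENCODE 29 (58396 identifiers matched), symbols from a gene name table (60463 matched) and promoters from RefSeq. Length was weighted by transcript counts. Genes named were all 9 members, up to 4 genes of each list with the smallest p in a comparison, TXNIP, ARRDC4, MYCN, MYCL, MGA, MLXIPL, ESR2 and the 5 protein-coding genes of mean log2 CPM of at least 1 most correlated with MYC. A gene that this rule also named is not reported here. The members and lists (nucleolar, growth and metabolic, repressed genes, MondoA-MLX targets, cofactors, SIN3-HDAC, turnover, neighbours, other network genes) were chosen with earlier results of these data known. Alternatives were RLE and upper-quartile factors, DESeq2 1.42.0, limma-voom (3.58.1), 2 other filters on low counts, the 6 libraries of a comparison alone, a replicate block, offsets for GC content and length (natural splines with 5 degrees of freedom per library) and leaving out each library.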

Additional observations from a re-analysis of the deposited data

How the results depend on the processing

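Of 675 results for members under alternatives, 593 kept their direction and their side of the threshold, 41 no longer passed, 15 newly passed and 26 changed sign; for other named genes the counts were 2290, 92, 4 and 12 of 2398. Every call of MYC and MXI1 held in all alternatives run. The causes were not tested.

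The number of members called in knockout against control cells was 5 with the GC content and length offsets and 2 to 5 without 1 library (5 without knockout replicate 1), against 3. With LY500307 it was 3 with no filter and 2 with the CPM filter, against 1. In add-back against control cells it was 2 with upper-quartile factors, 1 with DESeq2, 2 with the replicate block and 1 to 4 without 1 library (2 without control replicate 3 or add-back replicate 1, 1 without add-back replicate 2), against 4, and in vehicle against add-back cells 2 with the offsets, against 7. All genes called in knockout against control cells were 8207 with the offsets and 7946 to 8491 without 1 library, against 8971. In add-back against control cells they were 9125 with upper-quartile factors, 7470 with DESeq2 and 8745 with the replicate block, against 8942. Without 1 library they were 7826 to 8401. In vehicle against add-back cells they were 8366 with the offsets, against 9381. With LY500307 they were 1917 with no filter and 1516 with the CPM filter, against 1389. They were 279 with the offsets and 299 to 1844 without 1 library.

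With the offsets the sign changed in knockout against control cells for MXD1 (0.018), MXD4 (-0.38), MNT (-0.21) and MLXIP (-0.26); with LY500307 for MLXIP (-0.0023), MGA (0.017) and ARRDC4 (0.00089); in add-back against control cells for MXD3 (-0.080), MXD4 (-0.27), MNT (-0.30), HCFC1 (-0.18), SIN3B (-0.062) and MYCL (-0.11); and in vehicle against add-back cells for MXD3 (0.11), MXD4 (0.12), MLXIP (0.075), BRMS1 (0.030), STUB1 (0.051) and EIF4EBP1 (0.062). With no filter MGA came to 0.00081 in add-back against control cells.

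Leaving out 1 library changed the sign of uncalled genes. In knockout against control cells the ranges were -0.074 to 0.015 for MXD1, -0.0074 to 0.061 for MLX, -0.0051 to 0.036 for MLXIP and -0.016 to 0.035 for MGA. In add-back against knockout cells they were -0.084 to 0.033 for MAX, -0.14 to 0.035 for MXD3, -0.11 to 0.026 for MNT, -0.11 to 0.0064 for MLX and -0.045 to 0.0053 for MGA. With LY500307 MXI1 ran from -0.033 to 0.089, and in add-back against control cells MLX ran from -0.077 to 0.037 and MYCL from -0.026 to 0.16.

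Same-numbered libraries of different groups had residual correlations between -0.0952 and 0.0603, none of 30 over 0.1. No shared signal of same-numbered libraries was therefore seen. The labels do not say whether these libraries were prepared together, and the correlations cannot settle it. The replicate block left MYC called in 4 comparisons. No scaling moved the median of all genes by over 0.1. Low counts limit the precision of MYCN, MLXIPL and CDKN1C, which averaged 0.307 CPM in control libraries.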
